A study of Mus musculus with 8 samples.

Results

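The integrated stress response slows general protein synthesis when kinases phosphorylate the translation factor eIF2alpha, while translation of the transcription factor ATF4 goes up. ATF4 then switches on genes for amino acid supply, redox balance and, with its partner CHOP, cell death. The acinar cell makes more secreted protein than most cells, and the eIF2alpha kinase PERK is needed to keep the exocrine pancreas intact in mice. ATF4 output is set largely by translation, so Atf4 mRNA alone is a poor readout of the pathway and its target genes are the usual one.

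The 10 genes described here were chosen by name: Atf4, Ddit3, Trib3, Chac1, Asns, Ppp1r15a, Sesn2, Eif2ak4, Atf5 and Cebpb. All 10 were among the 11789 genes of the expression table, and 9 passed the minimum mean of 10 normalized counts for testing. Ddit3 did not. The 8 mice were 6 weeks old, and total RNA of the whole pancreas of each, frozen and pulverised, was sequenced with a strand-specific kit. The group called DC holds 4 mice with floxed Daxx alleles on both chromosomes and a Pdx1-Cre transgene (Daxx fl/fl Pdx1-Cre Tg), and the group called WT holds 4 wild-type mice. Daxx is a histone chaperone, and the comparison asks how basal pancreatic expression differs when it is lost. Pdx1-Cre is active in the embryonic cells that give rise to acini, ducts and islets, so vessels, stroma and immune cells keep Daxx. The groups differ in the floxed alleles and the transgene together, whose effects cannot be told apart here, since the labels hold no Cre-only or floxed-only group.

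Values are the authors' normalized read counts, that is, reads divided by 1 size factor per library, and each library holds 7705789 to 10517508 reads over the listed genes. Daxx itself, the check of the labels, had 28.0 ± 3.88 normalized counts in DC and 47.6 ± 8.02 in WT (SD, n = 4 each). The groups did not overlap, as in 1.04% of tested genes that were lower in DC, and the ratio of means was 0.588. Its limma unadjusted p was 0.00238 and its adjusted p 0.9997, so Daxx itself was not called in the comparison of genotypes. All 10 of 10 acinar markers were detected in every library, and their summed level was 2813316 to 4137721 in DC and 3424856 to 4100876 in WT. The Y-linked gene Ddx3y was listed at 0 in replicates 1 and 2 of each genotype and at 70.8 to 81.9 normalized counts in DC replicates 3 and 4 and 101 to 133 in WT replicates 3 and 4. The libraries thus split evenly by Y-linked expression within each genotype. In whole tissue, fewer cells of a type and less RNA per cell cannot be told apart.

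Promoter sequences are shown first because ATF4 acts through a short element, the C/EBP-ATF response element, and the 10 genes differ in whether they carry it near the start. The letters TGATGNAA of its core were searched on both strands in 12 RefSeq promoter windows of the 10 genes (GRCm38.p6, 250 bases before to 50 after each annotated start). They were found in 3 of the 10 genes, Chac1, Trib3 and Asns, against 4.51% of 27025 genes with a window and 3.97% of 32851 windows. The palindrome TGACGTCA, the full cyclic AMP response element, was found in 1 of the 10, Ppp1r15a, against 2.03% of genes. A match is a description of the letters and not a bound site. The 30-base windows below run 5′ to 3′ on the strand of the gene, with the matched letters in capitals.
Chac1: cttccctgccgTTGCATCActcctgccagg
Trib3: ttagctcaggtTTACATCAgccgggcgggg
Asns: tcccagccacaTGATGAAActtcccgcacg
Ppp1r15a: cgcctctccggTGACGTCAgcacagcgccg
The Chac1 window is chr2:119351038-119351067 on the plus strand, and its match starts 193 bases before the RefSeq start on the opposite strand. The Trib3 window is chr2:152344028-152344057 on the minus strand, with the match at bases 15 to 22 after the RefSeq start, also on the opposite strand. The GENCODE gene begins at position 152344032 on the minus strand, so this match lies before the GENCODE start. The Asns window is chr6:7693214-7693243 on the minus strand. Its match begins 23 bases before the RefSeq start, and the window lies inside the GENCODE gene, which begins at position 7693254 on that strand. The Ppp1r15a window is chr7:45526262-45526291 on the minus strand, with the match starting 12 bases before the start.

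The stretch before Chac1 is shown at greater length because this gene had the lowest limma log2 fold change of the 9 tested genes. That of Cebpb was lower with edgeR (-0.47 against -0.43 for Chac1) and with DESeq2 (-0.48 against -0.43). It covers chr2:119350992-119351228 on the plus strand and ends at the base before the GENCODE start of the gene, with the same match in capitals.
Chac1 upstream: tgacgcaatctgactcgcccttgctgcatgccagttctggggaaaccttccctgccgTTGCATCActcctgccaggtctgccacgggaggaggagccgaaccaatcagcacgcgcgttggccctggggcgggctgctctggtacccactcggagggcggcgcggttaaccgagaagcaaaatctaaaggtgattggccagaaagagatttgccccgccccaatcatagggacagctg

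The basal pancreas held the 10 transcripts at very unequal levels, and the order was the same at both ends in every library. Levels between genes are given as normalized counts per kb of annotated exon. Asns, which encodes asparagine synthetase and is a classic ATF4 target, was highest at 815 ± 130.4 per kb in DC and 818 ± 62.6 in WT, above 99.2% of listed genes. Ddit3, which encodes CHOP, was lowest at 5.25 ± 1.43 per kb in DC and 3.47 ± 0.427 in WT, above 21.3% of genes. The mean Asns level per kb was thus 187 times that of Ddit3.

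Atf4 came next to Asns, with 283 ± 20.8 per kb in DC and 299.7 ± 39.6 in WT. Chac1 and Atf5 followed with means over the 8 libraries of 145 and 132 per kb, and these neighbours were not separated, since Chac1 was the higher in 4 of 8 libraries. Eif2ak4, Sesn2, Ppp1r15a, Trib3 and Cebpb formed a lower group with means of 19.7, 18.7, 17.1, 12.2 and 11.1 per kb. Each neighbour pair in that group overlapped in range, and the median listed gene had 12.6 per kb. Ranges did not overlap between Asns and Atf4, Atf4 and Chac1, Atf5 and Eif2ak4, or Cebpb and Ddit3.

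**Figure D1:**
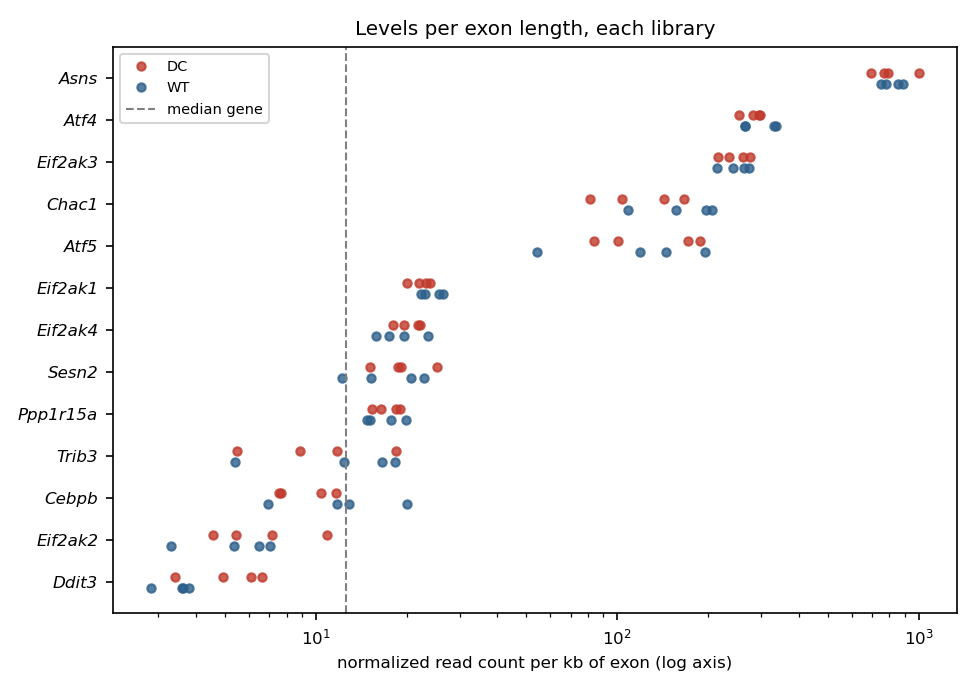
Normalized read count per kb of exon (log axis) of the 10 genes and the other eIF2alpha kinase genes, 1 point per library, DC above WT in each row; the dashed line is the median listed gene at 12.6 per kb. Asns and Atf4 lie far above that line and Ddit3 below it, while DC and WT points of each gene are intermixed except for partial separation in Ddit3.

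Of the 4 kinases that phosphorylate eIF2alpha, the one among the 10 genes is Eif2ak4, which encodes GCN2, the sensor of uncharged transfer RNA, at chr2:118388618-118475234 on the plus strand with 41 exon blocks. It had 165, 162, 146 and 134 normalized counts in DC replicates 1 to 4, against 118, 176, 146 and 130.1 in WT replicates 1 to 4. The WT range enclosed all 4 DC values, and the log2 fold change was 0.10 ± 0.15 (SE; limma adjusted p = 0.9997). Per kb, Eif2ak3, which encodes the endoplasmic reticulum kinase PERK, stood 12.6 times higher than Eif2ak4 over the 8 libraries. The heme-regulated kinase gene Eif2ak1 had 23.3 per kb, close to the 19.7 of Eif2ak4, and the double-stranded RNA sensor gene Eif2ak2 had 6.28.

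No stress response gene was called as different between the genotypes. Of the 9 tested genes, 0 were called by limma at a Benjamini-Hochberg adjusted p under 0.05, 0 had an unadjusted p under 0.05, and edgeR's quasi-likelihood test and DESeq2 also called 0. The background was the same, with 0% of 10468 tested genes called by limma, 0% by edgeR and 0.00955% by DESeq2. At an unadjusted p under 0.05 there were 2.88% of genes by limma, 2.86% by edgeR and 2.09% by DESeq2. Both genotypes overlapped in all 10 genes, and over all tested genes 1.87% did not overlap. Fold changes lay below 0 for 5 of the 9 genes, against 51.9% of all tested genes, with a median log2 fold change of -0.01 for the 9 and -0.01 for all.

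**Figure D2:**
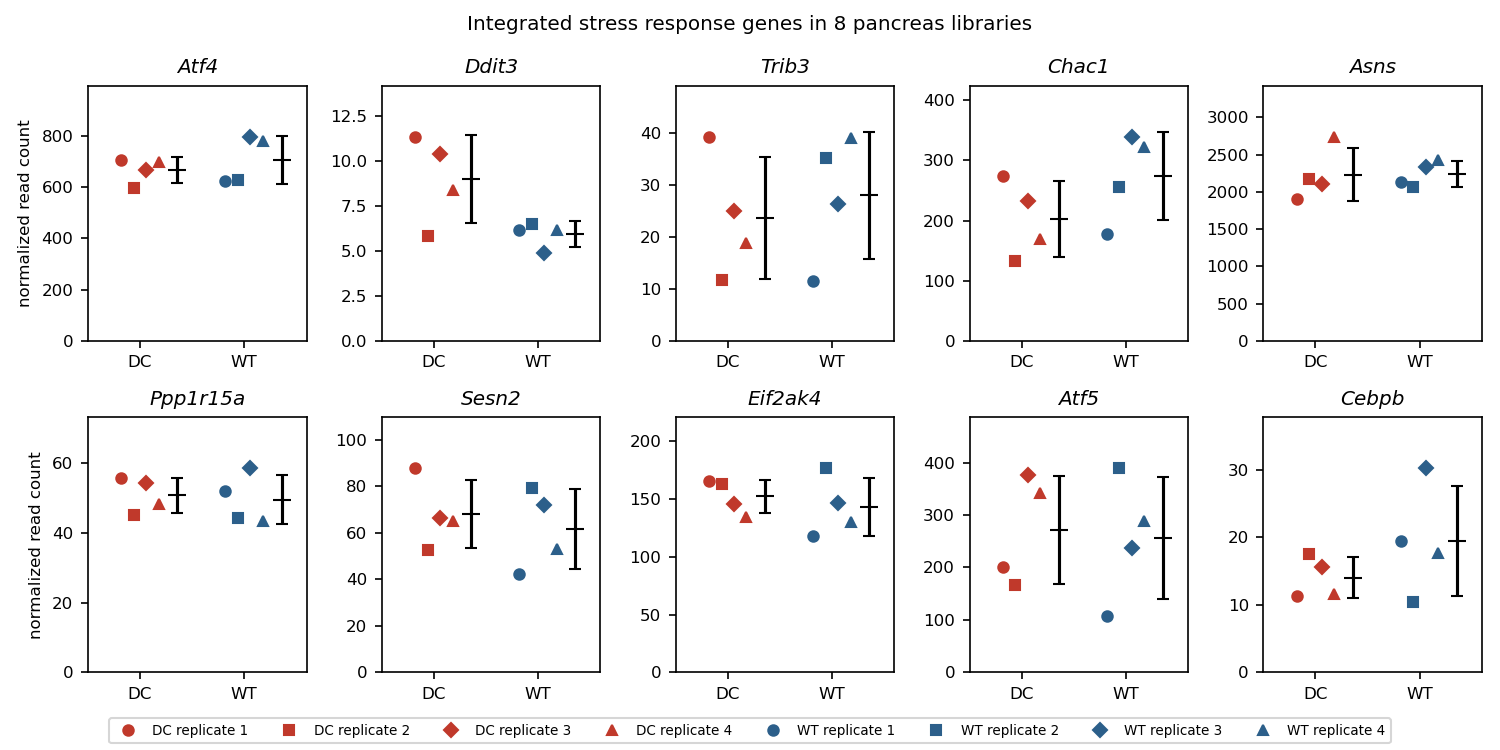
Normalized read count of each of the 10 genes in each library, DC left and WT right, with a separate axis from 0 per gene; symbols mark replicates, and bars give the mean ± SD (n = 4). DC and WT overlap in every gene, and the spread within a genotype is wide for Trib3, Chac1 and Atf5 and narrow for Atf4, Asns and Ppp1r15a.

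Atf4 (ENSMUSG00000042406, chr15:80255184-80257541, plus strand of GRCm38) encodes the transcription factor at the centre of the response. It had 704, 597, 668 and 698 normalized counts in DC and 625, 627, 796 and 779 in WT. Both highest values were in WT libraries and the lowest was in DC. The estimated log2 fold change of -0.08 ± 0.12 (SE) spans ratios of DC to WT from 0.799 to 1.12 at 95% (limma adjusted p = 0.9997).

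Asns lies at chr6:7675169-7693254 on the minus strand, with 13 exon blocks. It had 1906, 2172, 2104 and 2737 normalized counts in DC and 2127, 2061, 2337 and 2423 in WT. DC held both the lowest and the highest library. The log2 fold change was -0.01 ± 0.12 (SE) and the 95% interval spanned ratios of 0.833 to 1.18, the tightest together with that of Atf4 among the 9 genes.

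Chac1 (chr2:119351229-119354381, plus strand, 3 exon blocks) encodes an enzyme that degrades glutathione and is induced by ATF4, CHOP and ATF3. It had 274, 133, 233 and 170.1 normalized counts in DC, against 178, 256, 339 and 322 in WT. The mean was 203 ± 62.8 in DC and 274 ± 73.2 in WT (SD, n = 4 each). WT replicates 3 and 4 were the highest and DC replicates 2 and 4 the lowest, while WT replicates 1 and 2 lay within the DC range. Its log2 fold change of -0.44 ± 0.22 (SE) had the smallest unadjusted p of the 9 genes, 0.0674, with an adjusted p of 0.9997 in limma. The 95% interval ran from 0.528 to 1.03 as a ratio. Leaving out 1 library gave values between -0.63 without WT replicate 1 and -0.26 without DC replicate 2. The unadjusted limma p was under 0.05 in 3 of these 8 fits (without DC replicate 1, DC replicate 3 or WT replicate 1), and the adjusted p in 0. DC replicates 1 and 3 were the highest of DC and WT replicate 1 the lowest of WT, so each omission widened the difference. The share of all genes under 0.05 in these fits is not given here. With Y-linked expression as a covariate the log2 fold change was -0.43 for Chac1 and -0.07 for Atf4, whose highest libraries were likewise WT replicates 3 and 4. Because Y-linked expression split evenly within each genotype, this covariate could hardly move the difference between genotypes, whatever its own effect.

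Trib3 (chr2:152337422-152344032, minus strand, 4 exon blocks) encodes a pseudokinase that binds and restrains ATF4 in a feedback loop. It had 39.2, 11.7, 25.0 and 18.9 normalized counts in DC and 11.5, 35.2, 26.3 and 39.0 in WT. Each genotype held a library near 39 and a library under 12. Its log2 fold change of -0.23 ± 0.39 (SE) had a 95% interval of 0.479 to 1.53 as a ratio. Without DC replicate 2 it was 0.055. These values rest on 13 to 44 reads per library.

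Ddit3, at chr10:127290774-127296288 on the plus strand, had 11.4, 5.83, 10.4 and 8.40 normalized counts in DC and 6.17, 6.52, 4.87 and 6.20 in WT. DC libraries 1, 3 and 4 were above all WT libraries and DC replicate 2 was below 3 of them. These are 5 to 11 reads per library, for which counting error alone gives a coefficient of variation of 36.5%. The exact permutation test over 70 relabellings gave a two-sided p of 0.114, where the smallest possible is 0.0286. Without the minimum mean, the limma log2 fold change was 0.50 with an adjusted p of 0.9997. Scaled to equal library totals the 2 groups no longer overlapped and the exact p was 0.0286. This scaling also moved the median log2 fold change of all tested genes to 0.11. The share of all genes without overlap under it is not given here. In the GENCODE annotation Ddit3 shares 68 exon bases with Mars on the opposite strand and 105 with a second gene entry of the same name, and the sources do not say how reads there were assigned.

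Atf5 (chr7:44812256-44816658, minus strand) encodes a bZIP factor that, like ATF4, is translated more when eIF2alpha is phosphorylated. It had 200.3, 167, 376 and 342 normalized counts in DC and 108, 389, 237 and 289.5 in WT. Across all 8 libraries its highest value was 3.59 times its lowest, the widest ratio of the 10 genes, and WT supplied both ends. The log2 fold change was 0.14 ± 0.32 (SE), and it was -0.22 without WT replicate 1 and -0.04 without DC replicate 3. Atf5 shares 82 exon bases with genes on the opposite strand.

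Cebpb (chr2:167688915-167690418, plus strand, 1 exon block) encodes C/EBPbeta, a bZIP partner of ATF4 that is also abundant in myeloid cells and fat. It had 11.4, 17.5, 15.6 and 11.5 normalized counts in DC, against 19.4, 10.4, 30.2 and 17.7 in WT. WT replicate 3 was the highest and WT replicate 2 the lowest of all 8. The log2 fold change was -0.38 ± 0.34 (SE), from 8 to 31 reads per library. Cebpb shares 312 exon bases with Tmem189 on the opposite strand.

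WT replicate 3 was also the highest library for the immediate early genes Jun, Klf6 and Btg2, which are transcribed within minutes of a stimulus. Jun had 109, 125, 122 and 87.1 normalized counts in DC and 149.8, 106, 318 and 130.1 in WT. Of 8 tested immediate early genes, 6 lay below 0, against 51.9% of all tested genes, with a median log2 fold change of -0.09. Klf6 had 109.6 ± 24.8 normalized counts in DC and 195 ± 109 in WT (SD, n = 4 each). The part of this library's state in the Cebpb values was not tested. Without WT replicate 3 the Cebpb log2 fold change was -0.14.

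Sesn2 (chr4:132492032-132510501, minus strand, 10 exon blocks) encodes a leucine sensor that restrains mTORC1 signalling and is induced by ATF4. It had 87.7, 52.5, 66.7 and 65.1 normalized counts in DC and 42.3, 79.6, 72.1 and 53.1 in WT, with a log2 fold change of 0.16 ± 0.22 (SE). The highest library was DC and the lowest was WT, and without WT replicate 1 the log2 fold change was -0.0089. Ppp1r15a (chr7:45522916-45526268, minus strand, 2 exon blocks) encodes GADD34, which directs a phosphatase to eIF2alpha and ends the response. It had 55.7, 45.0, 54.2 and 48.3 normalized counts in DC and 52.0, 44.3, 58.4 and 43.4 in WT. Its spread between mice, 9.90% of the mean in DC and 14.3% in WT, was about that of counting error at this depth, 14.0%. The log2 fold change was 0.04 ± 0.18 (SE).

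**Figure D3:**
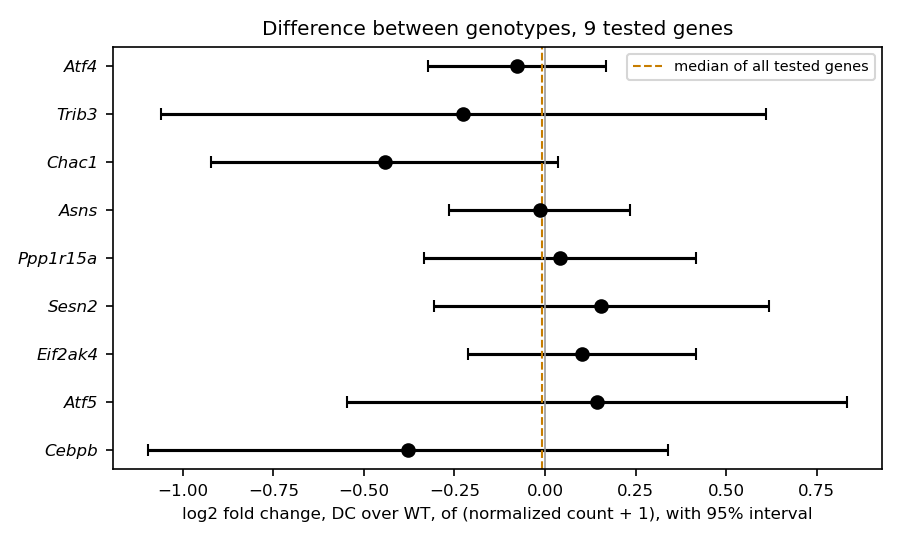
Log2 fold change, DC over WT, of the 9 tested genes with 95% intervals from limma over all genes; the dashed line is the median of all 10468 tested genes. Every interval includes 0, and those of Atf4 and Asns are the narrowest while those of Trib3, Atf5 and Cebpb are the widest.

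The 9 tested genes differed in how much they varied between mice of 1 genotype. On the log2 scale the residual SD was 0.16 for Atf4, 0.17 for Ppp1r15a, 0.17 for Asns and 0.20 for Eif2ak4, all below the 0.27 of the median tested gene. It was 0.73 for Trib3, 0.69 for Atf5, 0.47 for Cebpb, 0.44 for Chac1 and 0.36 for Sesn2, all above it. For Trib3 and Cebpb, counting error alone gives coefficients of variation of 19.8% and 24.0%, against observed values of 49.4% and 21.8% in DC and 43.7% and 42.0% in WT. For Chac1 and Atf5 it gives 6.45% and 6.21%, against observed values of 31.0% and 37.9% in DC and 26.8% and 45.6% in WT.

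Correlations between the genes were computed across libraries, and none passed adjustment. Over the 36 pairs of the 9 genes and the 8 libraries, Trib3 and Chac1 had the highest correlation, with Pearson r = 0.85 (exact permutation p = 0.00947, adjusted p = 0.341) and Spearman rho = 0.76 (exact permutation p = 0.0368, adjusted p = 0.412). DC replicate 2 and WT replicate 1 were the lowest libraries of their genotype in both genes, and without these 2 libraries, the farthest from the Trib3 median, r was 0.68. Atf4 and Chac1 had r = 0.79 (exact permutation p = 0.0227, adjusted p = 0.409) and rho = 0.83 (exact permutation p = 0.0154, adjusted p = 0.412). Without DC replicate 2 and WT replicate 3, r was 0.55. Over all 8 libraries scaled to equal totals, r of Atf4 and Chac1 was 0.68 (exact permutation p = 0.0722, adjusted p = 0.608). Sesn2 and Eif2ak4 had r = 0.73 (exact permutation p = 0.0394, adjusted p = 0.455) and rho = 0.74 (exact permutation p = 0.0458, adjusted p = 0.412), and 0.42 without DC replicate 1 and WT replicate 1. Of the 36 pairs, 3 had an unadjusted p under 0.05 by Pearson and 4 by Spearman.

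All of Asns, Trib3 and Chac1 carry the TGATGNAA letters. Asns had r = -0.16 with Trib3 (exact permutation p = 0.713, rho = -0.31 with p = 0.462) and r = -0.10 with Chac1 (exact permutation p = 0.816, rho = -0.10 with p = 0.840). Trib3 and Sesn2 had r = 0.71 (exact permutation p = 0.0505, adjusted p = 0.455) and rho = 0.76 (exact permutation p = 0.0368, adjusted p = 0.412). Without DC replicate 2 and WT replicate 1, the libraries farthest from the Trib3 median, r was 0.19. Leaving them out narrows the range of Trib3, which can lower r by itself.

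**Figure D4:**
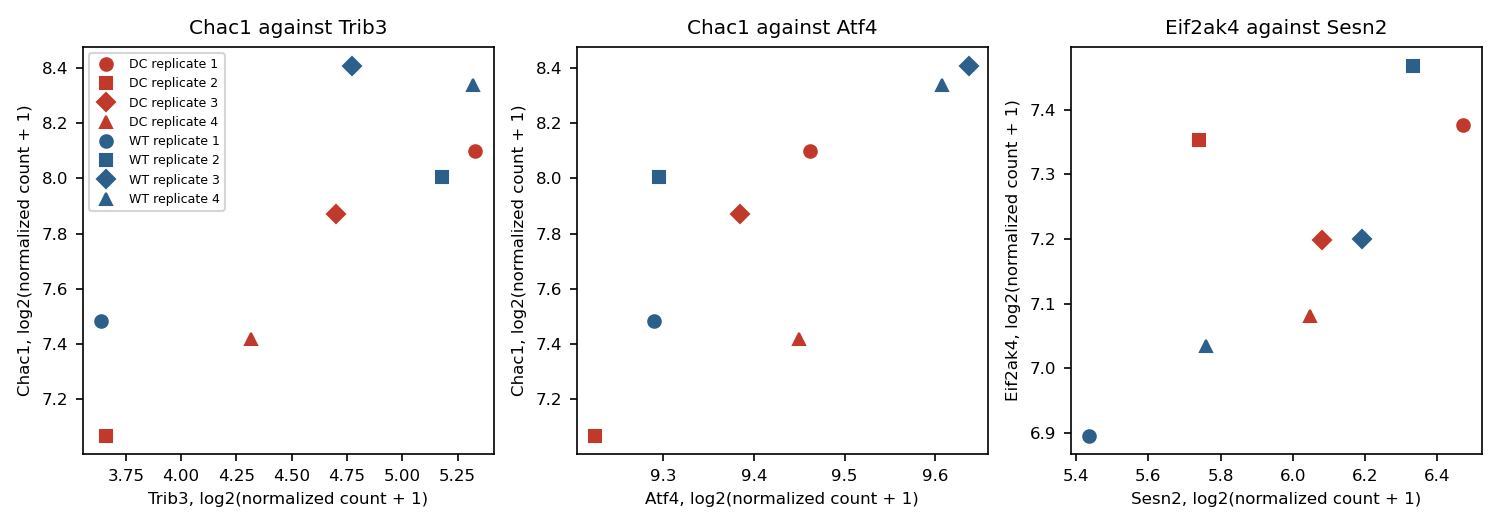
Log2(normalized count + 1) of the 3 gene pairs with the highest correlations, 1 point per library, with colour for genotype and symbol for replicate. DC replicate 2 and WT replicate 1 have the lowest Trib3 and Chac1 of their genotype, and WT replicates 3 and 4 lie at the high end of both Atf4 and Chac1.

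DC replicate 2 and WT replicate 1, low in Trib3 and Chac1, had the highest summed myeloid and adipocyte markers of their genotype. Summed myeloid markers, 8 of 10 listed, were 659 in DC replicate 2 and 260.4 to 428 in the other DC libraries, and 526 in WT replicate 1 and 351 to 418 in the other WT libraries. Single myeloid markers did not all follow this sum. In WT replicate 1, Cd163 was the lowest of WT at 25.6, and Adgre1 was the highest at 32.6. Csf1r, Cd14 and Cd68 were higher in WT replicate 3 than in WT replicate 1. In DC replicate 2, Cd163 and Cd68 were not the highest of DC, while Adgre1, Csf1r and Cd14 were. Summed adipocyte markers, 5 of 6 listed, were 549.8 in DC replicate 2 and 75.6 to 185 in the other DC libraries, and 305 in WT replicate 1 and 119.8 to 189 in the other WT libraries. Cfd alone gave 295 of this sum in DC replicate 2 and 165 in WT replicate 1. Fabp4 in WT replicate 1, at 61.7, was just below WT replicate 2 at 62.6, while Adipoq was the highest of WT there. The adipocyte list had 1 gene at 0 in a library. Summed islet markers were also the highest of WT in WT replicate 1, at 8010. In DC replicate 2 they were 1923, in a DC range of 1760 to 7697. The part of these cell types in the low Trib3 and Chac1 values was not tested.

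Patterns like those of the 10 genes were sought over all tested genes, after genotype means were subtracted. Closest to the mean standardized profile of the 9 genes over 8 libraries were Rbm3, Vsp35l, Recql4, Fance and Eif1ad, with Pearson r of 0.97, 0.97, 0.97, 0.97 and 0.96. Closest to Atf4 alone were Gosr2, Phf10 and Tead3, with r of 0.96, 0.96 and 0.96. These are the highest of 10468 values over 8 libraries and are given as a description.

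The rest of the pathway had no called gene either. Lists of its other parts held 132 tested genes in all, and 0 of them were called by limma in either direction, against 0% of all tested genes. At an unadjusted p under 0.05 by limma there were 6 of these genes, against 2.88% of all tested genes, and edgeR and DESeq2 called 0.

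Upstream of ATF4, 9 kinase and regulator genes centred on 0, with -0.01 as the median log2 fold change. Impact, which encodes an inhibitor of GCN2 activation, had 20.6, 16.7, 18.7 and 14.7 normalized counts in DC and 30.8, 24.8, 33.1 and 29.2 in WT. The genotypes did not overlap, as in 1.04% of tested genes that were lower in DC, and the log2 fold change was -0.71 ± 0.24 (SE; limma adjusted p = 0.9997). The Impact values rest on 14 to 35 reads per library. Gcn1l1, the GCN2 co-activator, had 1201 ± 175 in DC and 1054 ± 211 in WT, and Eif2ak2 had 35.8 ± 14.3 in DC and 28.4 ± 8.44 in WT (SD, n = 4 each). Eif2ak3 had 1488 ± 158 in DC and 1499.7 ± 157 in WT.

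The 16 genes of eIF2, its exchange factor eIF2B and the phosphatase had log2 fold changes from -0.19 to 0.21. Ppp1r15b, the constitutive counterpart of Ppp1r15a, was among the steadiest, with 845 ± 31.0 in DC and 846 ± 17.9 in WT. The exchange factor subunit gene Eif2b4 had 121 ± 19.1 in DC and 137 ± 18.8 in WT, and Eif2b1 had 129 ± 16.1 in DC and 144 ± 21.1 in WT. Denr, of translation re-initiation, had 69.7 ± 6.33 in DC and 61.7 ± 16.7 in WT.

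Among 11 bZIP partners and ATF4 turnover genes, the lowest fold changes were those of Cebpd and Ddit4. Cebpd, another C/EBP factor, ranged over 6.30 to 22.9 normalized counts in DC and 17.0 to 23.4 in WT, a log2 fold change of -0.78 ± 0.35 (SE; limma adjusted p = 0.9997). The Cebpd values rest on 6 to 25 reads per library. Ddit4, an mTORC1 inhibitor induced by ATF4, had 82.6, 88.3, 95.8 and 86.1 in DC and 103, 129, 266 and 93.0 in WT. WT replicate 3, the library with the highest Jun, had the highest Ddit4. WT replicates 1 and 2 were also above all DC libraries, and WT replicate 4 lay within the DC range. The part of the state of WT replicate 3 in the Ddit4 values was not tested. Atf3, another ATF4 partner, stayed under the minimum for testing, with 5.09 ± 3.89 in DC and 5.67 ± 2.32 in WT. Btrc, which encodes a ubiquitin ligase subunit that targets ATF4, had 54.5 ± 11.9 in DC and 70.2 ± 8.60 in WT.

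ATF4 targets in amino acid supply had small differences with 1 exception. For the 11 transporter genes the median log2 fold change was -0.08, and 1 did not overlap between genotypes, higher in DC as in 0.831% of all tested genes. This was Slc38a1, a glutamine transporter, with 24.8, 40.8, 43.7 and 39.9 normalized counts in DC and 15.9, 19.6, 7.79 and 20.4 in WT (log2 fold change 1.23 ± 0.31 SE, limma adjusted p = 0.9997). The Slc38a1 values rest on 8 to 49 reads per library. The cystine transporter gene Slc7a11 had 174 ± 66.6 in DC and 200.2 ± 34.2 in WT, and Slc1a4, a neutral amino acid transporter, had 218 ± 34.9 in DC and 193 ± 26.1 in WT.

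The 12 synthesis genes had a median of 0.02 and a range of -0.08 to 0.16. In the serine and proline pathways Psat1 had 666 ± 135 in DC and 591 ± 84.4 in WT, Shmt2 had 361 ± 29.5 in DC and 328 ± 54.2 in WT, and Pycr1 had 580.0 ± 64.0 in DC and 549.8 ± 56.2 in WT. The 13 transfer RNA synthetase and export genes had a median of -0.04. The lowest was the tryptophan enzyme gene Wars, with 808 ± 179 in DC and 1017 ± 229.9 in WT. Iars, of isoleucine, had 602 ± 54.7 in DC and 549 ± 80.3 in WT, and the transfer RNA exporter gene Xpot had 756 ± 68.3 in DC and 811 ± 46.5 in WT.

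Of 18 other ATF4 or CHOP targets, 15 lay below 0, against 51.9% of all tested genes, with a median log2 fold change of -0.08 and none called. The stress hormone gene Fgf21 had 78.3 ± 24.7 normalized counts in DC and 98.4 ± 39.7 in WT (SD, n = 4 each). Map1lc3b, of autophagy, was the 1 gene of the list without overlap, lower in DC as in 1.04% of all tested genes, and the nearest DC and WT values were less than 1 read apart. It had 399, 434, 434 and 438 in DC and 438, 466, 506 and 438 in WT (log2 fold change -0.11 ± 0.10 SE, limma adjusted p = 0.9997). Kdm7a, a histone demethylase gene, had 99.4 ± 12.4 in DC and 123 ± 21.0 in WT, and Rassf1 had 38.3 ± 7.31 in DC and 48.5 ± 18.8 in WT. Scaled to equal library totals, the median of all tested genes moved to 0.11, and how many of the 18 lay below 0 there is not given here.

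Around Sesn2, 14 genes of amino acid sensing by mTORC1 had a median of 0.02. Mios, which encodes a subunit of the complex that Sesn2 binds, had 41.3, 40.0, 47.9 and 40.9 normalized counts in DC and 58.2, 48.3, 52.6 and 63.7 in WT, with no overlap, again as in 1.04% of all tested genes, and a log2 fold change of -0.38 ± 0.17 (SE; limma adjusted p = 0.9997). Sesn1, a paralog of Sesn2, had 281, 281, 365 and 96.6 in DC and 309, 252, 576 and 384 in WT. Nprl2 had 23.0 ± 6.37 in DC and 30.9 ± 14.1 in WT.

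The parallel IRE1 and ATF6 arms of the unfolded protein response gave 10 of 20 genes above 0 and a median of 0.00. The 3 genes of this list with the smallest unadjusted p were Creld2, Hyou1 and Hsp90b1. Creld2 had 1002 ± 242 in DC and 815 ± 196 in WT, Hyou1 had 5628 ± 1125 in DC and 4800.0 ± 637 in WT, and Hsp90b1 had 3051 ± 499 in DC and 2589 ± 742 in WT. None was called (limma adjusted p = 0.9997 each).

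**Figure D5:**
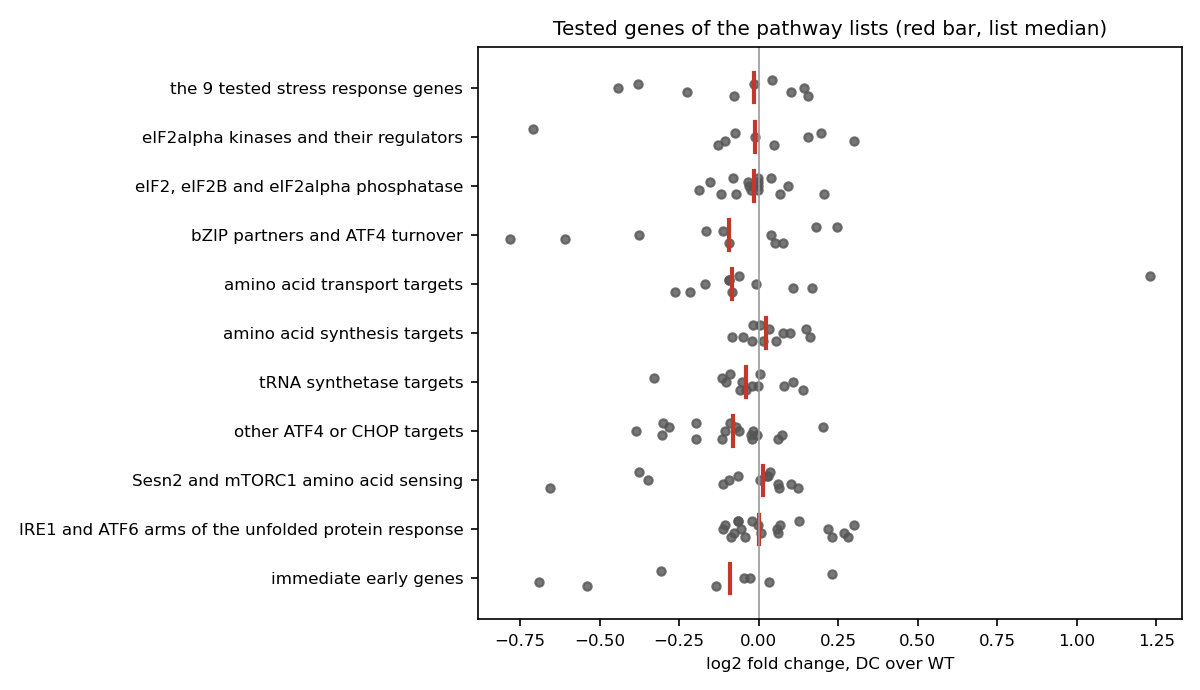
Log2 fold change, DC over WT, of each tested gene of the pathway lists, with list medians as red bars. The medians lie close to 0, and the points farthest out are Slc38a1 on the right and Cebpd, Impact and Klf6 on the left.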

How the data were processed

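The deposited table holds normalized read counts per gene (unit: signal), which the authors made by dividing counts by a size factor per library. The build named is GRCm38 and the tools are DESeq2 and STAR 2.6.0b, per the submitters' processing notes. For the read counter, its strand setting, the gene filter and the DESeq2 version: not given in the sources used here. Whole reads were recovered from the steps of the deposited values for 100% of values (tolerance 0.001). Gene IDs were matched to GENCODE M21 for 11781 of 11789 genes, 11112 of them with the same version, for exon lengths and positions.

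Genes with a mean of at least 10 normalized counts (10468, leaving out 1321) were tested as log2(value + 1) with limma 3.58.1 in R 4.3.3, DC against WT, 4 libraries each, with Benjamini-Hochberg adjustment over all of them. Fold changes on that scale understate changes of low genes. Single levels were also compared by exact two-sided permutation over 70 relabellings, smallest p 0.0286. On recovered reads edgeR 4.0.16 called 0 genes and DESeq2 1.42.0 called 1. The steps were tested on simulated data. Mice are separate animals per the design text. Replicates are numbered in accession order and pair nothing, and sex per library is not in the labels used. A Y-linked covariate was an alternative. The members and lists were chosen with earlier results of these data known. Genes named beyond the 10 are, per list, up to 3 with the smallest unadjusted limma p and those most alike in pattern. Atf3, Ddx3y, Eif2ak1, Eif2ak3, Ppp1r15b, Xbp1 and Map1lc3b are outside this rule, Map1lc3b being chosen after its values were seen.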

Additional observations from a re-analysis of the deposited data

Results flagged for a closer look

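In 5 of 92 groups of 4 libraries, over 46 genes, 1 library lay far from the others of its genotype by Dixon's criterion, where chance alone gives about 4.6. None was among the 20 groups of the 10 stress response genes. Xbp1, the IRE1 substrate, had 2523 normalized counts in DC replicate 4 and 1999.6 to 2080.1 in the other DC libraries. Xpot had 858 in DC replicate 4 and 715 to 731 in the other DC libraries. Eif2b1 had 153 in DC replicate 3 and 119 to 124 in the other DC libraries. Mios had 47.9 in DC replicate 3 and 40.0 to 41.3 in the other DC libraries. Btg2, an immediate early gene, had 587 in WT replicate 3 and 259.5 to 300.1 in the other WT libraries.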

How the results depend on the processing

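None of the 9 tested genes was called under any alternative run, and 146 of 160 recomputed fold changes kept their sign and their side of the threshold. Scaled to equal library totals, the log2 fold change of Atf4 was 0.045 and that of Asns 0.11, 3 of the 9 genes lay below 0 in place of 5, and 1 single level (Ddit3, exact p = 0.0286) passed where 0 had. This scaling moved the median of all genes from -0.0074 to 0.11, so these values moved with all genes. Asns was 0.0029 with edgeR. With a minimum mean of 50, 3 of 7 genes lay below 0. Over all genes, 1 was called (Bglap3, not a stress response gene) in place of 0 with equal library totals, robust moderation, a Y-linked covariate and DESeq2. Leaving out 1 library gave 0 to 1 genes called, 4 to 7 of the genes below 0, and log2 fold changes of -0.63 to -0.26 for Chac1, -0.59 to 0.055 for Trib3, -0.12 to 0.056 for Asns, -0.018 to 0.12 for Ppp1r15a, -0.0089 to 0.29 for Sesn2 and -0.22 to 0.39 for Atf5. The cause of these shifts was not tested. No paired analysis was possible because the labels give the genotypes no shared replicate numbers. Depth limits Ddit3, Trib3 and Cebpb most, at 5 to 44 reads per library.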
